A study of Rattus norvegicus with 58 samples.

Results

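The late risers of gastrocnemius were 119 genes whose median read count at 18 months was under 1.4 times the young level in this muscle. By 24 months these genes had at least doubled there, without a like change in triceps. Most were somewhat higher at 18 months already, with 114 fitted log2 fold changes above 0. Their median was 0.43, against 0.01 over all genes. They were chosen from a table of 32545 genes by 4 limits on group medians of normalised read counts, that is, counts divided by a size factor for each library, with 1 added to each median. The limits were a sarcopenic gastrocnemius median of 50 or more, a ratio of 24 over 8 months in gastrocnemius of 2 or more, a ratio of 18 over 8 months there under 1.4, and a ratio of 24 over 8 months in triceps under 1.5. The levels of adult and sarcopenic muscle and of early-sarcopenic gastrocnemius therefore chose the genes, and their differences are given as a description. Test calls in those contrasts are given as counts beside the background over all genes, and nothing is read from them. Of the 119 genes, 70 carried a symbol and 49 only an Ensembl identifier. The 157 genes that met the other limits but had a ratio of 1.4 or more at 18 months are called early risers here and serve for comparison.

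The samples were gastrocnemius and triceps, a hindlimb and a forelimb muscle, from the same 29 male Wistar rats, sequenced as polyadenylated RNA. Following the names of the study, the 10 rats of 8 months were adult, the 10 of 18 months early-sarcopenic and the 9 of 24 months sarcopenic, which made 58 libraries in 6 groups. The rats carried no treatment or allele that the labels name, each animal was sampled at a single age, and age is the only stated difference between the groups of a muscle. Libraries held 11176076 to 72297573 counted reads, with a median of 21249321, and the size factors ran from 0.502 to 3.54. All 119 genes passed the filter of at least 20 reads in at least 1 library, and 118 had a read in every library. The 6 muscle fibre markers with a symbol, among them Atp2a1 and Tcap, together held 101812 normalised counts or more in every gastrocnemius library.

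Sarcopenia is the loss of muscle mass and strength with age. Ageing muscle is known for fibres that lose their motor nerve, for fewer or slower satellite cells, which are the stem cells that repair fibres, and for thicker connective tissue between the fibres. In bulk tissue a higher count of a transcript can come from more cells of a type or from more RNA per cell, and these counts do not tell the 2 apart.

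The largest difference belonged to Rab15 (ENSRNOG00000007364), a small GTPase of endosomal membrane traffic. In gastrocnemius its lowest, median and highest normalised counts were 29, 70.0 and 148 in adult, 10.6, 90.7 and 457 in early-sarcopenic and 145, 488 and 817 in sarcopenic rats. In triceps they were 12.7, 42.1 and 209, then 15.4, 44.4 and 87.4, then 24, 50.5 and 119, so the sarcopenic triceps libraries all lay below the lowest sarcopenic gastrocnemius library. The fitted log2 fold change from 8 to 24 months was 2.54 ± 0.46 (SE) in gastrocnemius and -0.20 ± 0.48 in triceps. In all, 3 of the 10 early-sarcopenic gastrocnemius libraries were above every adult one, although the ratio of 18 over 8 month medians was 1.29.

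Lca5 (ENSRNOG00000009580), which encodes the ciliary protein lebercilin, came next. Its lowest, median and highest normalised counts in gastrocnemius were 3.22, 12.9 and 23 at 8 months, 6.9, 18.4 and 54.9 at 18 months and 41.3, 60.9 and 70.5 at 24 months, and no sarcopenic library overlapped the adult ones. The fitted log2 fold change was 2.12 ± 0.28 in gastrocnemius and 0.18 ± 0.31 in triceps. Slc26a2 (ENSRNOG00000018082), a sulfate transporter that feeds the sulfation of cartilage and matrix proteoglycans, gave 65.6, 96.9 and 119 in adult, 58.1, 126 and 365 in early-sarcopenic and 137, 254 and 493 in sarcopenic gastrocnemius. Its adult libraries spanned a narrow range that every sarcopenic library exceeded, and 7 of the 10 early-sarcopenic libraries exceeded it too. Armchx2 (ENSRNOG00000025705, spelled as in the table of the study) had gastrocnemius medians of 70.8, 87.5 and 256 at the 3 ages, with all 9 sarcopenic libraries above the adult range, and a log2 fold change of 1.96 ± 0.21.

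Ighm (ENSRNOG00000034190), the heavy chain of immunoglobulin M made by B cells, had lowest, median and highest counts of 24.3, 44.4 and 71.7 in adult, 35.9, 60.7 and 145 in early-sarcopenic and 61.5, 137 and 297 in sarcopenic gastrocnemius. A single sarcopenic library stayed within the adult range. Immunoglobulin segments resemble each other, so its counts are uncertain. Myf5 (ENSRNOG00000004768), the transcription factor that marks satellite cells and committed myoblasts, gave 44.4, 62.2 and 111 at 8 months, 45.3, 85.1 and 161 at 18 months and 107, 189.5 and 455 at 24 months, with 8 of 9 sarcopenic libraries above the adult range. In triceps the Myf5 medians were 52.9, 47.3 and 60.4 at the 3 ages. Its fitted log2 fold change from 8 to 24 months was 1.67 ± 0.24 in gastrocnemius and 0.32 ± 0.25 in triceps.

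Timp1 (ENSRNOG00000010208), an inhibitor of matrix metalloproteinases, had gastrocnemius counts of 102, 125 and 143 in adult, 83, 132 and 474 in early-sarcopenic and 192, 358 and 690.4 in sarcopenic rats. The adult libraries were close together and all 9 sarcopenic ones lay above them, while the early-sarcopenic libraries reached from below the adult range to above the sarcopenic median. In triceps its medians were 138, 107 and 192, and a sarcopenic library reached 453. Igsf10 (ENSRNOG00000013917), an immunoglobulin superfamily protein of mesenchymal cells, had gastrocnemius medians of 84.1, 98.9 and 265, and all 9 sarcopenic libraries were above the adult range.

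Among the 4 further genes with the highest counts that carry a symbol, Hspb8 (ENSRNOG00000022392), a small heat shock protein that delivers misfolded proteins to autophagy, had gastrocnemius counts of 7367, 9923 and 11740 in adult, 9079, 11822 and 28622 in early-sarcopenic and 11600, 21856 and 31764 in sarcopenic rats. In triceps its medians were 9736, 9772 and 9750, within 1 SD of each other. Myl12a (ENSRNOG00000015278), a regulatory light chain of non-sarcomeric myosin, had gastrocnemius medians of 8563, 9622 and 18964 and triceps medians of 5889, 5726 and 7227. Eef1a1 (ENSRNOG00000009439), the elongation factor of embryonic and proliferating tissue that mature fibres largely replace with another form, had gastrocnemius medians of 4119, 5020 and 10114 and triceps medians of 4335, 3854 and 5704. LOC100360150 (ENSRNOG00000029996) had gastrocnemius medians of 2377, 2317 and 5570. Eef1a1, Myl12a, Ighm, Ftl1, Tubb2b, the 2 identifiers of Tmsb10 and LOC100360150 have near-identical copies or close paralogs in the genome, and how their shared reads were counted makes these values uncertain. The plot of these 12 genes shows each library.

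**Figure D1:**
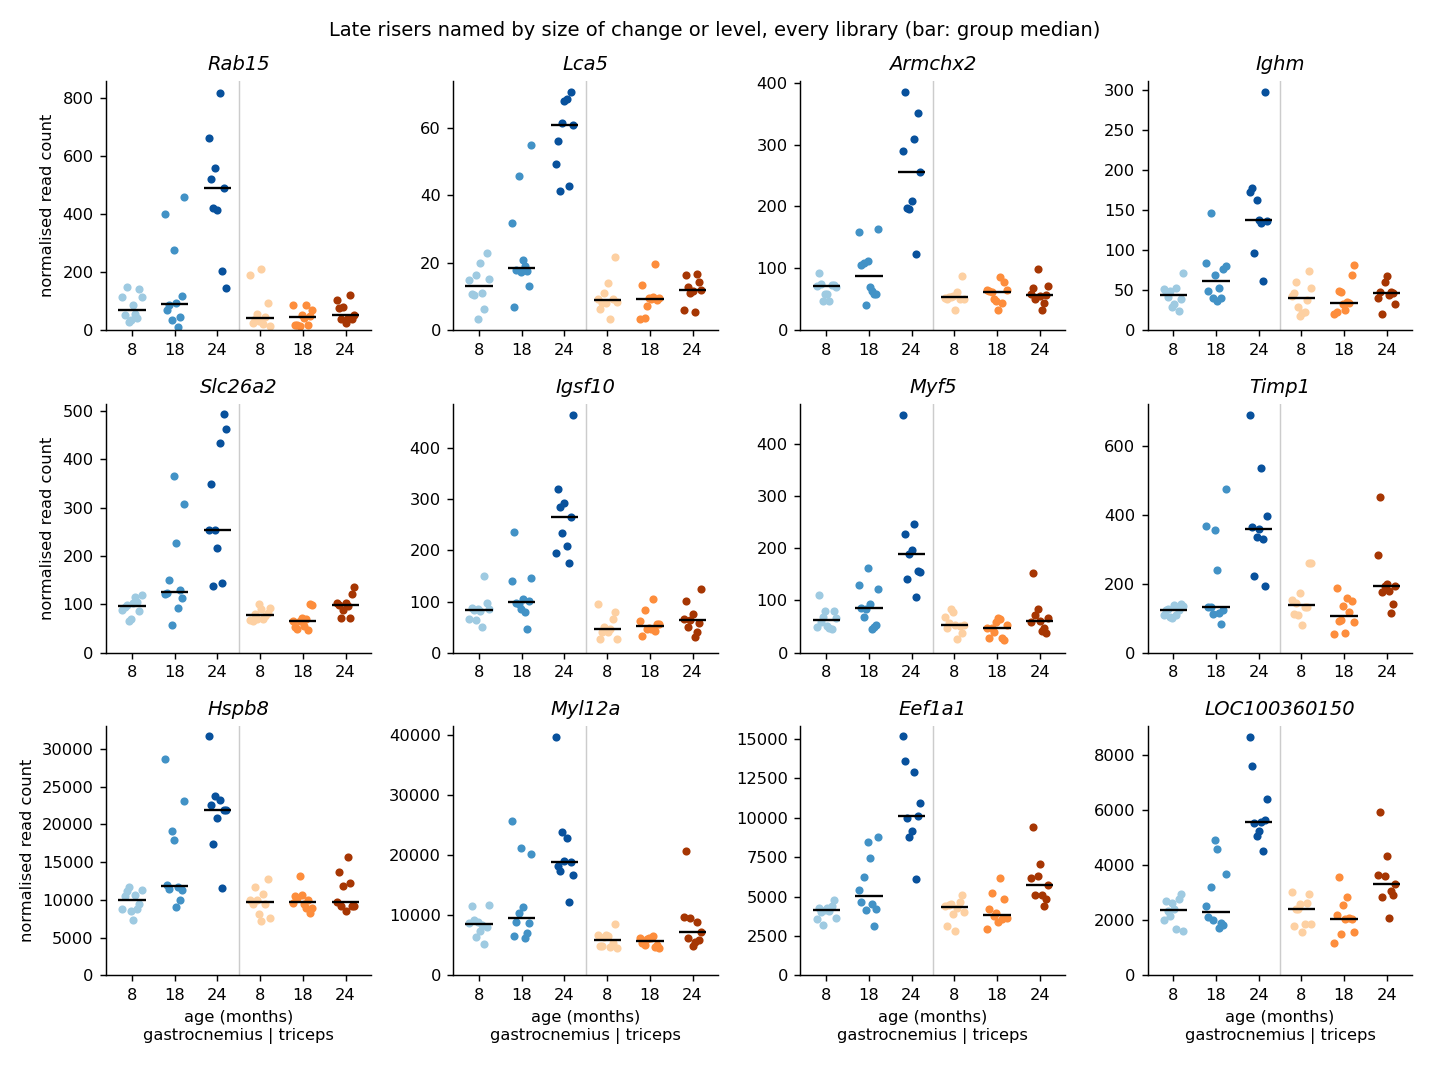
Normalised read count (vertical axis) of 12 late risers in every library, by age in months and muscle (horizontal axis), where each point is 1 rat and each bar a group median. In gastrocnemius the 24-month points stand highest and the 18-month points spread from the adult level to the sarcopenic level, and Rab15 at 18 months runs from 10.6 to 457, and its triceps medians stay between 42.1 and 50.5.

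Promoter sequence was available from RefSeq for 47 of the 69 distinct symbols, as the bases before the annotated start of each gene on the GRCr8 assembly. The 250 bases before the start are shown for Rab15, the gene with the largest difference, and for Lca5 and Cnp, which hold the letters CAGCTG, a core that myogenic factors such as Myod1 and Myf5 can bind. Capitals mark CAGCTG, and all are written 5′ to 3′ on the strand of the gene.
Rab15, chr6:101257084-101257333, minus strand: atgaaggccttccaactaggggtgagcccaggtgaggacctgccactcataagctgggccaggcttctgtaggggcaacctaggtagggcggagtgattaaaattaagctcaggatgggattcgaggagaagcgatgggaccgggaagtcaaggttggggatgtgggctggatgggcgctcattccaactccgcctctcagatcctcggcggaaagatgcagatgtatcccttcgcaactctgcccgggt
Lca5, chr8:93254992-93255241, minus strand: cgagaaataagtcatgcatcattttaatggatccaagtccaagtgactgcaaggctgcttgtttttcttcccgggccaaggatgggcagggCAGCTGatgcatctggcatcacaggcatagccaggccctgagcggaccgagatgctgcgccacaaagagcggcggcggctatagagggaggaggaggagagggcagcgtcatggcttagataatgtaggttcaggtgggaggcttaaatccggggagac
Cnp, chr10:86011254-86011503, plus strand: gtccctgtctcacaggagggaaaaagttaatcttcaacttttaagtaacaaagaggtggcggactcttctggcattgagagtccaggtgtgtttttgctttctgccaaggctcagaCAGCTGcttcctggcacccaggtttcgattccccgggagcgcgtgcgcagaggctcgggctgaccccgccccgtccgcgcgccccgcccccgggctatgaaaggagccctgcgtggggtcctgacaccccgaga

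The motif begins 159 bases before the start in Lca5 and 134 bases before it in Cnp. Lca5 has 2 promoters in the table, of which the first is shown. On either strand, CAGCTG was found in 5 of 47 late riser promoters (10.6%), namely those of Cnp, Lca5, Map3k7, Mest and Slc44a1. It was found in 20 of 78 early riser promoters (25.6%) and in 12.9% of all 27457 genes with a promoter. The general E box CANNTG, which contains CAGCTG, was in 55.3% of late, 70.5% of early and 67.0% of all promoters. GGGCGG, the GC box bound by Sp factors, was in 31 of the 47 (66.0%), in 64.1% of early and in 33.5% of all promoters, while 58.4% of all genes that carry a symbol in the study held it. TGANTCA, the AP-1 core, was in 4 late riser promoters (8.51% against 6.99% of all), TGTGGT, the Runx core, in 5 (10.6% against 15.2%), TATAAA in 2 (4.26% against 14.1%), and the Tead core GGAATG in 4, those of Igsf10, Rab15, Timp1 and Tmem9 (8.51% against 12.9%). The other 5 of the 12 motifs searched were CCAAT (34.0% against 36.1%), TGATGNAA (2.13% against 3.58%), TTCNNGAA (6.38% against 7.93%), TGACGTCA (0 of 47 against 1.78%) and TGANNNNGC (38.3% against 36.6%). Late risers could be matched only by symbol, so genes that carry a symbol in the study are the nearer background. Of their promoters, CAGCTG was in 15.4%, CANNTG in 59.3%, TGANTCA in 4.75%, TGTGGT in 11.8%, TATAAA in 6.77% and GGAATG in 10.4%. CCAAT was in 37.5%, TGATGNAA in 2.28%, TTCNNGAA in 5.27%, TGACGTCA in 2.86% and TGANNNNGC in 37.3%. These shares describe letters in a window of fixed length and carry no test.

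Of the late risers with a symbol, 61 had a RefSeq protein-coding gene of that symbol, and these lay on 20 chromosomes with at most 8 on a single one. No pair of them were neighbouring protein-coding genes.

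Most late risers had a modest difference. The ratio of 24 over 8 months in gastrocnemius was between 2 and 2.5 in 85 genes and 3 or more in 12, with a median of 2.25 and a highest value of 6.88. The median in sarcopenic gastrocnemius ran from 52.1 to 24412 normalised counts, the highest in ENSRNOG00000037085, with 21 genes under 100. After the 8 genes named first, the next largest log2 fold changes with a symbol were those of Cnp (1.64), Dnah1 (1.61), Tec (1.61), Lrrn1 (1.58), Hmox1 (1.58), Spon1 (1.55) and AABR07048653.1 (1.53). Among genes with a symbol, below the 4 highest named above, Mgp, Smoc2, Tmsb10, C7, Mmp14 and Map3k7cl had sarcopenic gastrocnemius medians of 1607 to 5263. Every sarcopenic library lay above every adult library for 43 of the 119 genes, against 3.31% of all genes tested, a count that the rule itself favours. In edgeR's fit, 115 of the 119 were called higher at 24 months (22.6% of all 14947 genes tested) and 91 when a fold change over 2 was also asked for (6.54% of all genes), and nothing is read from these counts because the rule used the same contrast. The 4 that were not called had no symbol, and for 2 of them, ENSRNOG00000037085 and ENSRNOG00000029401, only 1 sarcopenic library exceeded the adult range. The largest genes without a symbol were ENSRNOG00000023148, with gastrocnemius medians of 76.8, 63.2 and 224, and ENSRNOG00000031955, with 40.7, 57.1 and 172.

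Close to the limits, Rcn1 (2.002) and Gatm (2.005) were inside the limit on the 24 over 8 month ratio, and ENSRNOG00000007237 (1.996) and Naaa (1.995) outside. Smoc2 (1.3981) and Map3k7 (1.3977) were inside the limit on the 18 over 8 month ratio, and AABR07021465.2 (1.401) and Rdh5 (1.405) outside. In triceps, ENSRNOG00000030183 (1.499) and ENSRNOG00000058940 (1.49) were inside, and ENSRNOG00000037563 (1.51) and Ifitm1 (1.54) outside. For the level, ENSRNOG00000020953 (52.1) and ENSRNOG00000000368 (52.4) were inside, and S100a3 (49.3) and AABR07065531.1 (48.1) outside. Without the limit on 18 months the other 3 limits left 276 genes, without the one on triceps 157, and without the one on level 358.

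By known function, 52 of the 69 symbols were sorted into 10 roles after their values had been seen, as a description. The widest role was the extracellular matrix and its turnover, with 10 genes whose log2 fold changes from 8 to 24 months in gastrocnemius ran from 0.98 to 1.68. It held Timp1, Igsf10, the membrane metalloproteinase Mmp14, the collagen-degrading cathepsin Ctsk, the fibroblast surface protease Fap, the calcification inhibitor Mgp, the matricellular proteins Smoc2, Spon1 and Wisp1, and the integrin chain Itga9. Mmp14 had gastrocnemius medians of 704, 919 and 1656 at the 3 ages, and its log2 fold change from 8 to 24 months was 1.28 ± 0.21. Spon1 had medians of 57.6, 74.6 and 168 there and was the matrix gene whose triceps median went down, from 81.4 at 8 to 52.4 at 24 months. Wisp1 had a lower median at 18 months (19.7) than at 8 months (21.6) before 73.5 at 24 months.

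A further 5 genes belonged to satellite cells and development. Besides Myf5 these were Megf10, a receptor that keeps satellite cells in the undifferentiated, dividing state, Mest, an imprinted gene of growing tissue, and the transcription factors Irx3 and Klf5. Megf10 had gastrocnemius medians of 99.1, 122 and 210.1 and a log2 fold change of 0.90 ± 0.15, and Irx3 had medians of 30.9, 40.3 and 82.9 and a log2 fold change of 1.49 ± 0.29. The immune genes were Ighm, the macrophage receptor Adgre1 (F4/80), the complement component C7, the kinase Tec and the tetraspanin Cd82. Adgre1 had the smallest log2 fold change among the symbols, 0.89 ± 0.17, with 6 of 9 sarcopenic libraries above the adult range. Tec had gastrocnemius medians of 98.7, 113 and 300.1 and all 9 above it.

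A set of 3 genes was sorted under haem and iron, in which Hmox1 cleaves haem, Blvrb is a biliverdin reductase and Ftl1 stores iron. Hmox1 had gastrocnemius medians of 201, 277 and 569.9 and a log2 fold change of 1.58 ± 0.24, against 0.67 ± 0.24 in triceps. Blvrb (391, 525 and 841) and Ftl1 (379.8, 504 and 782) had smaller differences with less spread, 0.99 ± 0.11 and 1.19 ± 0.13. Both were also among the 4 late risers called higher in triceps at 24 months by edgeR (2.08% of all genes tested), with log2 fold changes of 0.52 there, beside Eef1a1 (0.55) and ENSRNOG00000031540 (0.57), in a contrast that the rule used, so nothing is read from these calls. The rule allowed such genes because its triceps limit is a ratio of 1.5.

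The cytoskeletal and ciliary genes included Myl12a, both identifiers of Tmsb10, an actin-sequestering thymosin, the neuronal tubulin Tubb2b, the actin nucleator Spire1, the augmin subunit Haus6, and the axonemal dynein Dnah1 next to Lca5. Their log2 fold changes ran from 0.91 to 2.12. Cnp, an enzyme of myelin-forming Schwann cells, had lowest, median and highest gastrocnemius counts of 366, 526 and 615 in adult, 482, 701 and 1153 in early-sarcopenic and 919.9, 1509 and 2449 in sarcopenic rats. Cdc25a, the phosphatase that releases cyclin-dependent kinases, had medians of 189, 251 and 392, and the kinase Map3k7 (TAK1) had 31.1, 43.8 and 69.8. The kinase Src and the cell cycle regulator Rgcc completed the signalling genes, with log2 fold changes of 0.98 ± 0.15 and 1.51 ± 0.30. Of the 12 genes whose median was lower at 18 than at 8 months, Rgcc, Wisp1 and LOC100360150 are examples.

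**Figure D2:**
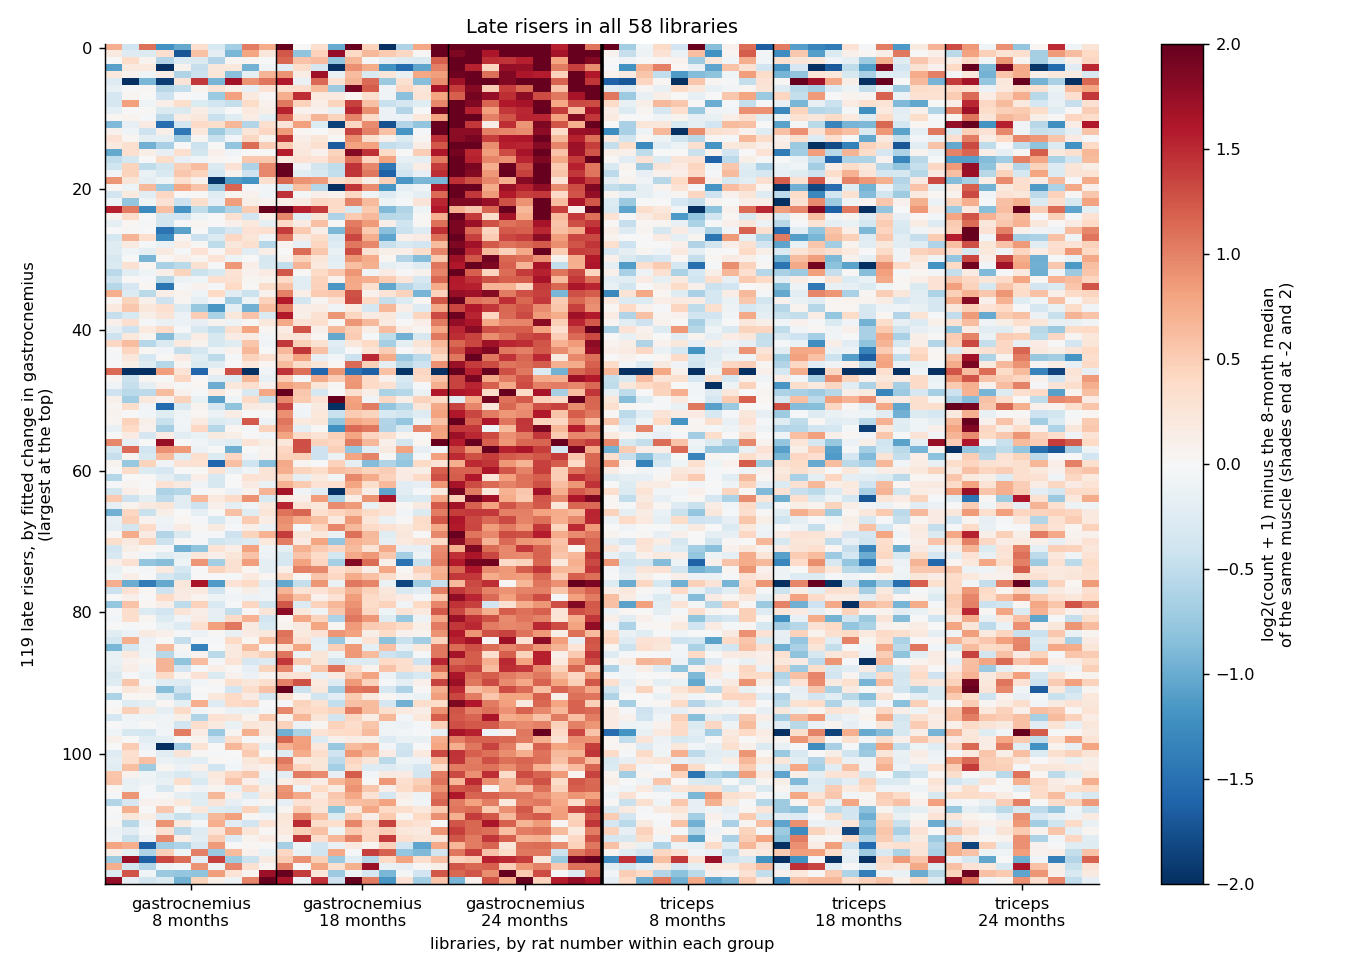
Each row is a late riser and each column a library, and the shade gives log2(count + 1) minus the 8-month median of the same muscle. The 9 columns of sarcopenic gastrocnemius are red in nearly all rows, and a few of the 10 early-sarcopenic gastrocnemius columns are red through most rows while others are pale.

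The early-sarcopenic gastrocnemius libraries were uneven. A rule on a group median leaves up to 4 of 10 libraries free to be high, but it does not decide whether these are the same rats for different genes. Counted per library, the late risers above the highest adult gastrocnemius library numbered 87 of 119 in rat 20, 72 in rat 11 and 71 in rat 15. They numbered 49 in rat 16, 38 in rat 12, 23 in rat 13, 20 in rats 14 and 17, 9 in rat 19 and 1 in rat 18. Over all genes tested the same share lay between 8.91% and 19.7% in these 10 libraries, so that 73.1% of the late risers in rat 20 stood against 19.4% of all genes, and 0.840% in rat 18 against 9.62%. Rats 20, 11 and 15 held the highest early-sarcopenic value of 40, 34 and 21 late risers, where 10.4%, 16.1% and 7.07% of all genes had their highest value in those rats. Rats 14, 18 and 17 held the lowest value of 29, 28 and 22 late risers.

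In rat 20, 101 late risers reached or passed the lowest sarcopenic library, in rat 15 93 and in rat 11 78, compared with 18 in rat 18 and 21 in rat 19. The median over the late risers of the log2 difference from the adult median was 0.91 in rat 20, 0.79 in rat 11 and 0.78 in rat 15, within the 0.62 to 1.52 of the 9 sarcopenic rats. In rats 14, 17, 18 and 19 it was between -0.16 and 0.08, within or just below the adult range of -0.14 to 0.16. A median early-sarcopenic value under 1.4 times the adult value thus stood for rats at both ends. With group means in place of medians, 42 of the 119 had an 18 over 8 month ratio of 1.4 or more. Applied to group means throughout, the limits gave 69 genes, of which 44 were among the 119. Counted by gene, 10 late risers had no early-sarcopenic library above the adult range, 80 had 1 to 4, and 29 had 5 or more. edgeR called 19 of the 119 higher at 18 months (3.41% of all genes), among them Hmox1 (log2 1.02), Slc26a2 (0.85) and Hspb8 (0.66), in a contrast that the rule used, so nothing is read from these calls.

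**Figure D3:**
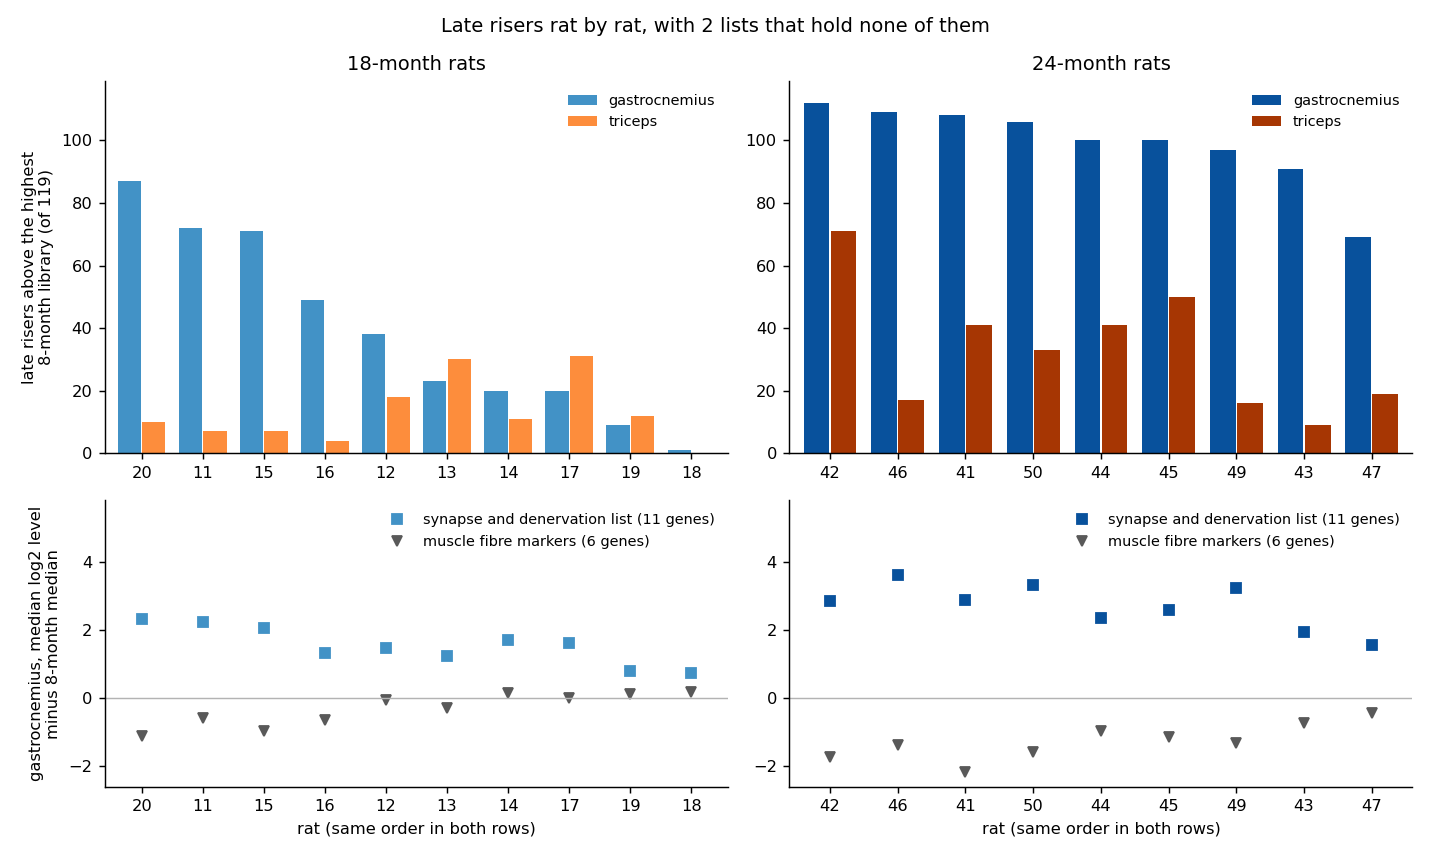
Upper row, number of late risers (of 119) above the highest 8-month library of the same muscle, in gastrocnemius and triceps of each rat, and lower row, median log2 level in gastrocnemius relative to 8 months of 11 synapse and denervation genes and 6 muscle fibre markers. Rats 20, 11 and 15 had 71 or more late risers in gastrocnemius at 18 months and 10 or fewer in triceps.

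In triceps of the same rats, the late risers above the highest adult triceps library numbered 10 in rat 20 and 7 in rats 11 and 15, against 31 in rat 17, 30 in rat 13 and 0 in rat 18. At 24 months all 9 gastrocnemius libraries had between 69 (rat 47) and 112 (rat 42) late risers above the adult range. In triceps the sarcopenic libraries had between 9 and 50, except for 71 in rat 42. In early-sarcopenic gastrocnemius, rats 20, 11 and 15 had 18433679, 27340758 and 32351192 reads, rats 18 and 19 had 27418984 and 15226096, and all 10 libraries lay between 12767191 and 32351192. The part of depth in this order was not tested, nor was that of a batch, since the labels name none.

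Over the libraries of a group, pairs of late risers had a positive median correlation. The median Spearman correlation over all pairs of the 119 was 0.42 in early-sarcopenic and 0.32 in sarcopenic gastrocnemius, against 0.08 in adult gastrocnemius. In triceps it was 0.14, 0.19 and 0.22 at 8, 18 and 24 months. Early risers, which were also chosen for a rise with age, had 0.28 in early-sarcopenic and 0.32 in sarcopenic gastrocnemius. Pairs of all genes had a median between -0.0061 and 0 in each group. Positive and negative pairs offset each other in that median, so it does not measure how closely genes at large vary together. These correlations rest on 9 or 10 libraries that share depth and composition, and are given as a description.

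Some other gene lists followed the same rats and some did not. For 11 genes of the postsynapse and denervation, such as the acetylcholine receptor chain Chrna1, its organiser Musk and Runx1, none of them a late riser, the median log2 level relative to adult gastrocnemius was 2.32, 2.24 and 2.04 in rats 20, 11 and 15. It was between 0.74 and 1.72 in the other 7 early-sarcopenic rats, and lowest in rats 18 (0.74) and 19 (0.79), which also had the fewest late risers. For 6 muscle fibre markers it was -1.11, -0.58 and -0.98 in rats 20, 11 and 15, -0.65 in rat 16, and between -0.29 and 0.18 in the others. The 22 immune genes outside the late risers were highest in rats 20, 11 and 15 (1.07, 0.88 and 0.98, others 0.23 to 0.80). The 22 ion channel genes outside the late risers (-0.76, -0.34 and -0.54) and the fat marker (-1.04, -0.84 and -0.81) were lowest there. In sarcopenic gastrocnemius rat 47, with the fewest late risers, had the lowest value of the denervation genes (1.55, others 1.93 to 3.62). It had the highest of the fibre markers (-0.42, others -2.17 to -0.73). Rat 47 was also lowest for the p53 response (1.25, next 1.81) and the satellite cell markers outside the late risers (0.34, next 0.71). The same rat was lowest for these immune genes (0.73, next 1.104) and highest for these ion channel genes (-0.32, next -0.77). Matrix genes outside the late risers were lowest in rat 49 (0.48, against 0.57 in rat 47). At 18 months, the p53, satellite cell and matrix lists had another order. The 13 genes of the p53 response stood at 2.05, 1.85 and 0.96 in rats 11, 20 and 15 but at 1.92 and 1.75 in rats 17 and 14, which had 20 late risers each. The 2 satellite cell markers that are not late risers stood at 1.29, 0.70, 0.70 and 0.50 in rats 14, 17, 12 and 18, above the 0.47, 0.46 and 0.31 of rats 20, 11 and 15. For matrix genes outside the late risers the highest values were those of rats 20 (0.70) and 12 (0.58), with 0.39 in rat 11 and 0.14 in rat 15. The early risers, which the limit of 1.4 at 18 months holds high at that age, had the same 3 rats at the top (1.25, 1.04 and 1.02 in rats 20, 15 and 11). The part of these gene lists in the values of the late risers was not tested.

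**Figure D4:**
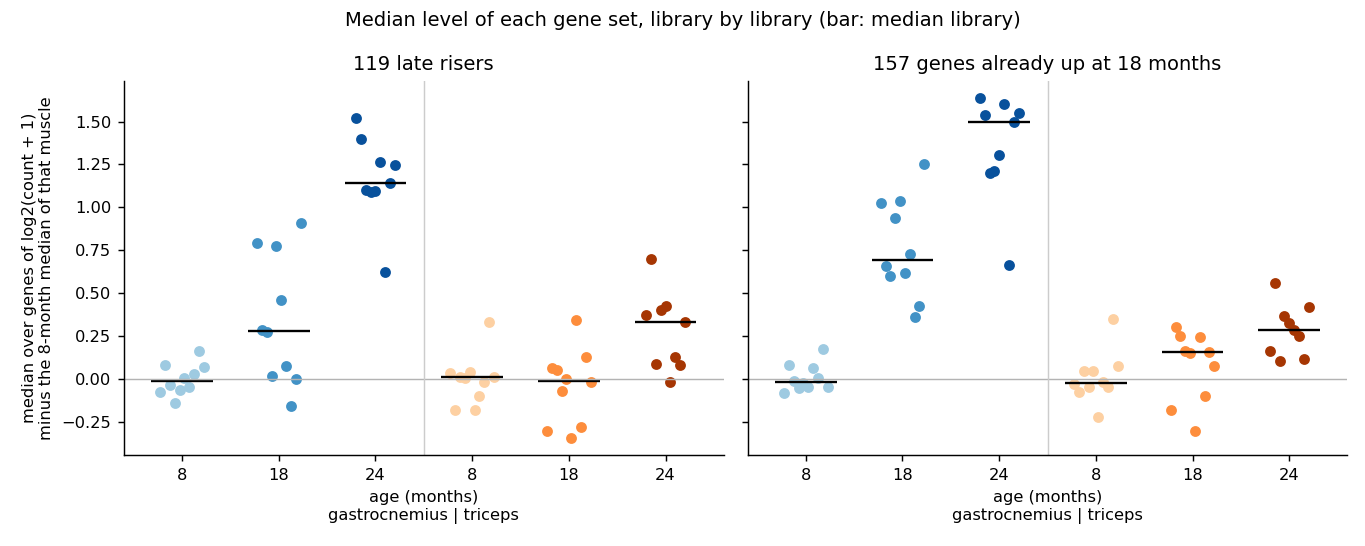
Median over 119 late risers (left) and 157 early risers (right) of log2(count + 1) minus the 8-month median of that muscle, for each library, with a bar at the median library. Late risers at 18 months in gastrocnemius run from -0.16 to 0.91 and overlap both the adult and the sarcopenic libraries. The early-riser libraries of that age all stand at 0.36 or more. Their genes were chosen by a ratio of group medians of 1.4 or more at that age, which favours high values there.

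In triceps, the comparison of early-sarcopenic with adult rats used libraries of 18 months that entered no part of the rule, although the adult triceps libraries did, as a divisor that favours high adult values. edgeR's quasi-likelihood test called 0 of the 119 late risers at an adjusted p under 0.05, where 7 of 14947 genes were called (0.0468%). At an unadjusted p under 0.05 there were 4 late risers (3.36%), 3 higher and 1 lower, against 5.43% of all genes. DESeq2 and limma voom called 0 as well, with 5 and 2 late risers at an unadjusted p under 0.05. The lowest adjusted p was 0.627, for ENSRNOG00000031955. The other 3 were Src (log2 fold change 0.38 ± 0.15, adjusted p = 0.775), Irx3 (0.59 ± 0.28, adjusted p = 0.868) and Megf10 (-0.33 ± 0.14, adjusted p = 0.842). The median log2 fold change was -0.03, with 52 genes above and 67 below 0, and over all genes it was 0.0040. The ratio of 18 over 8 month medians in triceps had a median of 0.95 and ran from 0.50 to 1.73, with 3 genes at 1.4 or more.

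At 24 months the late risers in triceps were not level. The median log2 fold change from 8 to 24 months was 0.35 in triceps, against 0.03 over all genes, and 110 of the 119 were above 0, in a contrast that the rule capped. The median was -0.03 from 8 to 18 months and 0.35 from 18 to 24 months. For no late riser did every sarcopenic triceps library exceed every adult one (0.0201% of all genes), and for none did every sarcopenic exceed every early-sarcopenic gastrocnemius library (0.0468% of all genes). For 17 late risers every sarcopenic gastrocnemius library exceeded every sarcopenic triceps library (0.963% of all genes), and for 14 of the 157 early risers, counts that the rule favours because it asks for a high level in gastrocnemius and caps the ratio in triceps. For the late risers, the 24 over 8 month triceps ratios had a median of 1.19, and 13 of the 119 were below 1.

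The 2 muscles were also compared at 8 months with the rat as a block, before either age difference. The rule divides by the adult medians of both muscles, which favours genes with a low adult gastrocnemius and a high adult triceps value, so the calls are a description and no p is given. In edgeR's test 5 of the 119 late risers were called, 2 higher in triceps (1.85% of all genes) and 3 higher in gastrocnemius (2.31% of all genes). Irx3 had lowest, median and highest counts of 7.14, 30.9 and 57.8 in gastrocnemius and 37.8, 56.1 and 120.3 in triceps, so that the ranges overlapped, with a log2 difference of 1.16 ± 0.28. Dynll1, a dynein light chain, was higher in triceps by a log2 of 0.49 ± 0.14. Higher in gastrocnemius were Ano1, a calcium-activated chloride channel, with 221, 299 and 409 against 141, 182 and 288 and a log2 difference of -0.70 ± 0.15, Igsf10 (-0.76 ± 0.21) and ENSRNOG00000030183 (-1.21 ± 0.28). The median log2 difference of the late risers was -0.05. Ano1, Irx3 and ENSRNOG00000030183 were called in each of 18 refits by other settings or without an adult rat, but with a fold change over 2 also asked for 2 late risers were left, and Ano1 (a log2 difference of -0.70) was not one of them. Dynll1 lost its call when any adult rat other than rat 6 was left out, and Igsf10 when rat 2, 3, 5, 6, 8, 9 or 10 was, so that 3 were called without rat 2, 3, 5, 8, 9 or 10. A fit to the 8-month libraries alone called 17, and a fit without the rat block 3. The age comparisons and this one share the adult libraries of both muscles.

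**Figure D5:**
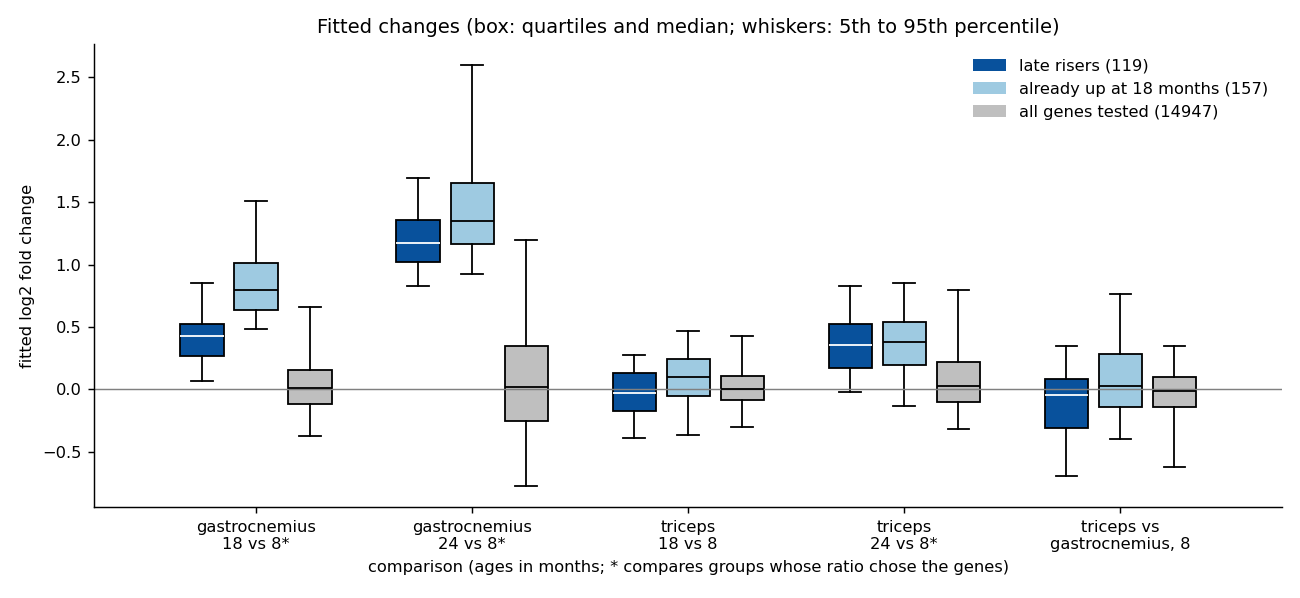
Fitted log2 fold change of the late risers, the early risers and all genes tested in 5 comparisons, with boxes for the quartiles and whiskers from the 5th to the 95th percentile. The medians of the late risers are 0.43 and 1.17 in gastrocnemius at 18 and 24 months, -0.03 and 0.35 in triceps, and -0.05 between the muscles at 8 months, and an asterisk marks comparisons that chose the genes.

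Across all 58 libraries, the genes most like the median late riser were Rab31, a GTPase of vesicle traffic (Spearman rho 0.91), ENSRNOG00000055962 (0.91), Eef1a1 (0.90), ENSRNOG00000008680 (0.90) and ENSRNOG00000022975 (0.90). Eef1a1 and ENSRNOG00000008680 were themselves late risers and Rab31 an early riser. Of the 30 most alike, 6 were late and 3 early risers and the remainder did not meet the limits of either group.

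The gene lists place single late risers among genes of known pathways, and do not show that the late risers as a set belong to any. Only genes with a symbol could be placed, and symbols came from the study's own table of genes, which it selected on these samples, so that the counts of changed genes below are not independent evidence. Of the 2163 genes with a symbol, 70 were late risers (3.24%), and edgeR called 38.1% higher and 55.1% lower in gastrocnemius at 24 months and 13.5% higher at 18 months, against 22.6%, 21.6% and 3.41% of all genes tested. Of 39 matrix genes 5 were late risers (Timp1, Mmp14, Smoc2, Spon1 and Ctsk), and edgeR called 32 higher and 2 lower in gastrocnemius at 24 months but 7 higher at 18 months. Of 40 genes of mitosis and DNA replication 36 were called higher at 24 and 2 at 18 months, but only 3 doubled at a level of 50 or more, and Cdc25a was the single late riser. In contrast, the 11 postsynapse and denervation genes, all called higher at 24 months and 8 of them at 18 months, held no late riser, and 9 of them doubled but exceeded 1.4 at 18 months. The 13 genes of the p53 response held none either, with 12 called higher at 24 and 10 at 18 months.

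Of 23 immune genes 21 were called higher at 24 and 13 at 18 months, and Adgre1 was the late riser. Of 31 genes of axon guidance and synapses, Lrrn1 was among the late risers, with 15 called higher and 13 lower at 24 months. Of 19 growth signal genes, Mest and Megf10 were late risers, and 11 were called higher and 5 lower. Tubb2b was 1 of 13 genes of the embryonic sarcomere and cytoskeleton (9 higher, 4 lower), Ano1 1 of 23 ion channel genes (6 higher, 15 lower) and Hspb8 1 of 10 proteolysis genes (4 higher, 6 lower). The 11 genes of the amino acid and unfolded protein response held no late riser, with 1 called higher and 8 lower. In triceps at 18 months, a single gene of these 11 lists was called, an ion channel gene that was higher.

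Markers of some cell types were higher and those of others lower in sarcopenic gastrocnemius, in a contrast that the rule used. Only markers with a symbol could be counted. These were 4 of 6 listed for satellite cells, 3 of 7 for macrophages, 2 of 7 for lymphocytes and 6 of 14 for muscle fibres. All 4 satellite cell markers with a symbol were called higher at 24 months (Myf5, Megf10, Myod1 and Fgfr4). Of genes with a symbol 38.1% were called higher, and of all genes 22.6%. The rule had chosen Myf5 and Megf10 on this contrast. The sum of the 4 was 763 to 1592 normalised counts in adult and 1493 to 3683 in sarcopenic libraries. All 3 macrophage markers (Adgre1, itself a late riser, Cx3cr1 and Aif1) were called higher, with sums of 383 to 667 in adult and 593 to 1135 in sarcopenic libraries. Both lymphocyte markers, Cd28 and Cd8b, were higher, from sums of 5.05 to 51.5 up to 149.8 to 369. The single Schwann cell marker was Cnp, and 1 of 2 fibroblast markers was called higher. The 6 muscle fibre markers with a symbol were all called lower, with sums of 386692 to 706150 in adult and 101812 to 367268 in sarcopenic libraries. Both blood markers and the fat marker were called lower too. Of genes with a symbol 55.1% were called lower, and of all genes 21.6%. Of 2 endothelium markers 1 was called lower, and neither mast cell marker was called. In sarcopenic triceps none of the satellite cell, macrophage, lymphocyte or muscle fibre markers was called, at 226349 to 679666 for the fibre sum. Both mast cell markers, the tryptases Tpsab1 (log2 fold change 0.86 ± 0.22) and Tpsb2 (0.66 ± 0.16), were called higher there (2.08% of all genes), and none of the endothelium, fibroblast, Schwann cell, blood and fat markers was called. The part of cell numbers in the late risers was not tested.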

How the data were processed

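Per the labels and the methods of the study, the authors prepared polyA libraries (TruSeq RNA v2), sequenced them as read pairs, aligned them to Rnor_6.0 with STAR 2.3.0e, removed alignments of low mapping quality and deposited HTSeq counts of reads per gene. The strand option and the Ensembl release are not given in the sources used here, so overlapping genes are uncertain. Symbols were read from the study's table of genes (2163 identifiers, 58 symbols mended for the letter l read as 1). RefSeq promoters came from GRCr8 and were matched by symbol.

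Counts were divided by median-of-ratios size factors from 13424 genes with a read in every library, and the limits were applied to group medians plus 1. The members and the gene lists were chosen with earlier results of these data known. Fits used edgeR 4.0.16 in R 4.3.3 (quasi-likelihood F test, TMM, 14947 genes that reached 20 reads in any library, Benjamini-Hochberg adjustment), with 1 mean per muscle and age, or with the rat as a block for the comparison of the muscles. Both muscles came from the same animal. After removal of group means, the correlation of a rat's 2 muscles over genes had a median of 0.186 and was over 0.1 in 24 of 29 rats. SE are fitted log2 fold changes over the square root of F. On simulated data with 200 genes changed 2-fold, the test recovered 191 with 9 false calls of 14512 genes for triceps at 18 months, and 186 with 9 false calls of 14537 genes for the muscles. The simulated libraries were independent draws around 1 mean per gene, without rat effects or other differences of age or muscle. They therefore check the code and do not show how many real changes the tests would find. Named genes were the 15 largest by fold change and the 10 highest by level with a symbol, those on gene lists, those called in a tested comparison, those nearest a limit and those most like the median late riser. The values of 1 such gene are not reported here. For triceps at 18 months, p-values rest on the spread between rats within groups. For the muscles, calls rest on how far the difference between a rat's 2 muscles varies. Both fits pooled the spread over the libraries of all groups. DESeq2 1.42.0, limma 3.58.1, other scalings, filters and left-out rats were alternatives.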

Additional observations from a re-analysis of the deposited data

Results flagged for a closer look

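For the 12 genes shown by library and for the 2 summaries of the late risers per library, 82 groups of 9 or 10 libraries were examined. Dixon's criterion marked a highest or lowest library far from the others. Chance alone passes it in about 1 group of 20 if values are normally distributed. Counts need not be, and the groups share libraries, so the number of passes is not set against that rate. It was passed 15 times. In sarcopenic gastrocnemius, rat 47 had the lowest median log2 level of the late risers (0.62, next 1.09) and the fewest above the highest 8-month library (69, next 91). This library also had the fewest reads of its group (15064285, next 16907259). Its 2 blood markers stood at a log2 of 0.76 relative to adult gastrocnemius (others -1.82 to -0.61). The part of depth or blood in these values was not tested. In adult triceps, rat 9 had the highest median log2 level (0.34, next 0.04) and the highest Armchx2 (88.1 normalised counts, next 61.7).

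In sarcopenic triceps, rat 42 had the highest Myf5 (152, next 82.8), Timp1 (453, next 282) and Myl12a (20750, next 9675). This library also had the lowest muscle fibre markers of its group (-1.69 on the log2 scale relative to adult triceps, others -0.69 to 0.11), and their part in these values was not tested. In sarcopenic gastrocnemius, rat 41 had the highest Myf5 (455, next 245) and Myl12a (39755, next 23919), rat 49 the highest Ighm (297, next 177) and rat 50 the highest Igsf10 (465, next 320). In early-sarcopenic gastrocnemius, rat 13 had the highest Ighm (145, next 83.1) and rat 12 the highest Igsf10 (237, next 146). Rat 8 had the highest Igsf10 in adult gastrocnemius (150.0, next 96.5), and rat 14 the highest Hspb8 in early-sarcopenic triceps (13190, next 10686).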

How the results depend on the processing

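The number of late risers depended on the limits and on the scaling. It was 120 with TMM factors, 149 with upper quartile factors and 98 with a level minimum of 100, but 365 with library totals alone, 358 with no level minimum and 69 with group means. Of the 365, 76 were among the 119, and library totals moved the median log2 ratio of all genes from 8 to 24 months in gastrocnemius to 0.34, from 0.02 with size factors. Leaving out each of the 29 rats in turn gave 102 to 146 genes, of which 94 to 119 were among the 119. No late riser was called in triceps from 8 to 18 months under any alternative, and the replicate block by label number, whose rats are different animals at each age, also gave 0 with a median log2 difference of -0.03. For the muscles at 8 months, 5 late risers were called with DESeq2 and 5 with limma voom, which did not call Igsf10. The number was 17 with the 8-month libraries only, 2 with a fold change over 2 and 3 with no replicate block, and 3 to 5 with each rat left out. The cause was not tested. Dynll1 lost its call in 11 and Igsf10 in 9 of 18 refits, and Ano1 also lost it with a fold change over 2. With 11176076 reads or more in each library, 118 of the 119 late risers had a read in every library.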
